A study of Mus musculus with 24 samples.

Results

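The interferon regulatory factors described here were Irf1, Irf2, Irf3, Irf4, Irf5, Irf8 and Irf9, chosen by name through the annotation of the Affymetrix 430A array. Irf7, another family gene on the array, was not among those chosen and is given with the related genes. They were read by 13 of the 22626 non-control probesets. Of these 13, 10 had a signal of at least 32 on all 3 arrays of a condition and were tested among the 12838 probesets that did, so that each of the 7 genes had at least 1 tested probeset. The study measured mRNA in CD4 lineage thymocytes before and during selection, in a strain that deletes self-reactive cells efficiently (B10) and in the diabetes-prone NOD strain. All mice were healthy females of 6 to 8 weeks, carried the H2k haplotype and had the 3A9 TCR transgene, whose receptor recognises a peptide of hen egg lysozyme on I-Ak and is stained by the clonotype antibody 1G12. TCR mice had this transgene alone, and TCR insHEL mice also had lysozyme driven by the insulin promoter, which is active at a low level in medullary epithelial cells of the thymus. In each strain there were 3 arrays of pre-selection cells (PreS, CD4+CD8+CD69-1G12-) from TCR mice, 3 of PreS from TCR insHEL mice, 3 of positively selecting cells (S+, CD4+CD8low CD69+1G12+) from TCR mice, and 3 of negatively selecting cells (S-, the same sort gate) from TCR insHEL mice. Each array was a separate pool of mRNA from sorted cells, amplified in 2 rounds, and the number of mice in a pool is not given in the sources used here. S+ and S- therefore differ by the insHEL transgene of the mouse as well as by the selection step, and both are compared with the same PreS arrays.

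Interferon regulatory factors are transcription factors that share a DNA-binding domain and bind elements holding repeats of GAAA. Irf9 is the DNA-binding part of ISGF3, the complex through which type I interferon turns on its target genes, Irf3 and Irf5 are latent proteins activated after nucleic acids or microbial products are sensed, and Irf1 activates and Irf2 often represses an overlapping set of promoters. Irf4 and Irf8 work mainly in lymphoid and myeloid cells with partners such as PU.1, Batf and Jun. Irf4 is induced by T cell receptor signals, while Irf8 is best known for dendritic cell, macrophage and B cell development.

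Promoter sequence from 250 bases before to 50 bases after the transcript start (RefSeq, GRCm38.p6) was searched on both strands for a GAS element (TTCNNNGAA), an IRF element (GAAANNGAAA) and the NF-kB consensus. These stretches are shown because they are all the matches found in the windows of the 7 genes. Capitals mark the match, and all lie on the plus strand of the genome, which is the strand of each gene.
Irf1, GAS, chr11:53769916-53769940: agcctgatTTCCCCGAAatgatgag
Irf1, NF-kB, chr11:53769993-53770018: tccgggccGGGGAATCCCgctaagtg
Irf8, GAS, chr8:120736179-120736203: aaagtgatTTCTCGGAAagagagcg
Irf8, GAS, chr8:120736197-120736221: gagagcgcTTCAGAGAAggcggatt
Irf2, IRF element, chr8:46739496-46739521: ggggaagtGAAAATGAAAttgacttt
Irf2, GAS, chr8:46739513-46739537: attgacttTTCCGAGAAatgatgaa
Irf2, NF-kB, chr8:46739720-46739745: ggggtgggGGGGATTTCCagcctcgg
The Irf1 GAS match began 90 bases before the start of the gene, and the 2 Irf8 matches began 171 and 153 bases before it. The IRF element and GAS matches of Irf2 lay next to each other, 241 and 224 bases before the start. Of 32851 promoter windows of the same length, 8.298% held a GAS match, 3.443% an IRF element and 8.459% an NF-kB match, so each is a common sequence. The windows of Irf3, Irf4, Irf5 and Irf9 held none of the 3.

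Values are MAS 5.0 signals on a linear scale, and no signal is compared between genes, since probesets differ in brightness. The sorted cells carried the markers of their labels, and 9 named T lineage genes summed to a signal of 12650 to 20910 on every array. Within each strain, the summed genes of double positive cells were highest in PreS, and those of single positive cells in S+ and S-. In B10 PreS, S+ and S- the 7 named thymic epithelial genes summed to 180.8 to 256.7, 182.7 to 224.8 and 296.1 to 440.3. In NOD they summed to 114.9 to 197.7 in PreS, 223.9 to 384.7 in S+ and 280.5 to 307.4 in S-. Of the 7, 5 had mean signals under 32 in B10 S+ and 3 in B10 S-. The 3' to 5' signal ratio of the Gapdh control, a sign of RNA length after amplification, ran from 2.19 to 57.2 and was highest on 4 arrays, NOD S+ replicates 1 and 2, B10 S+ replicate 1 and NOD PreS TCR insHEL replicate 1. Member results are given also without these 4 arrays where a call changed, and counts of related genes in some of the comparisons where they moved by over 1.5 times. Such counts moved in both directions. All 13 comparisons were run so, and calls over all probesets went from 1899 to 337 in NOD S+ against PreS and from 475 to 154 in S+, NOD against B10, with 1 NOD S+ array left. The arrays were hybridized on 9 days. In sorted pools, fewer cells of a type and less RNA per cell cannot be told apart.

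Irf1, Irf4 and Irf9 rose from PreS to both selecting states of both strains, whereas Irf8 was lower in B10 S+. Irf8 was not called in the other 3 comparisons with PreS, but its values there moved with the treatment of hybridization day. Those of NOD moved also with the arrays kept. The difference between strains in the Irf8 change from PreS to S+ was not past the threshold. In B10 S+ against PreS, 4 of the 10 member probesets were higher and 2 lower (limma, adjusted p under 0.05), where 16.8% of all probesets tested were called in either direction, 7.37% higher and 9.44% lower. In B10 S- against PreS 3 were higher and none lower, against a background of 11.2% in either direction and 4.42% higher. In NOD S+ against PreS 4 were higher and none lower (background 14.8%, with 6.13% higher), and in NOD S- against PreS 3 were higher and none lower (background 11.2%, with 5.51% higher). The median log2 difference of the 10 probesets was 0.67, 0.48, 0.78 and 0.70 in these 4 comparisons, beside 0.04, 0.01, 0.02 and 0.02 over all probesets. The signals of PreS and the selecting group did not overlap for 5, 5, 3 and 4 of the 10, where 19.2%, 17.9%, 17.5% and 22.0% of all probesets did not. Irf4 passed the filter only through the groups in which it was high, and these counts are a description of the members that passed.

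**Figure D1:**
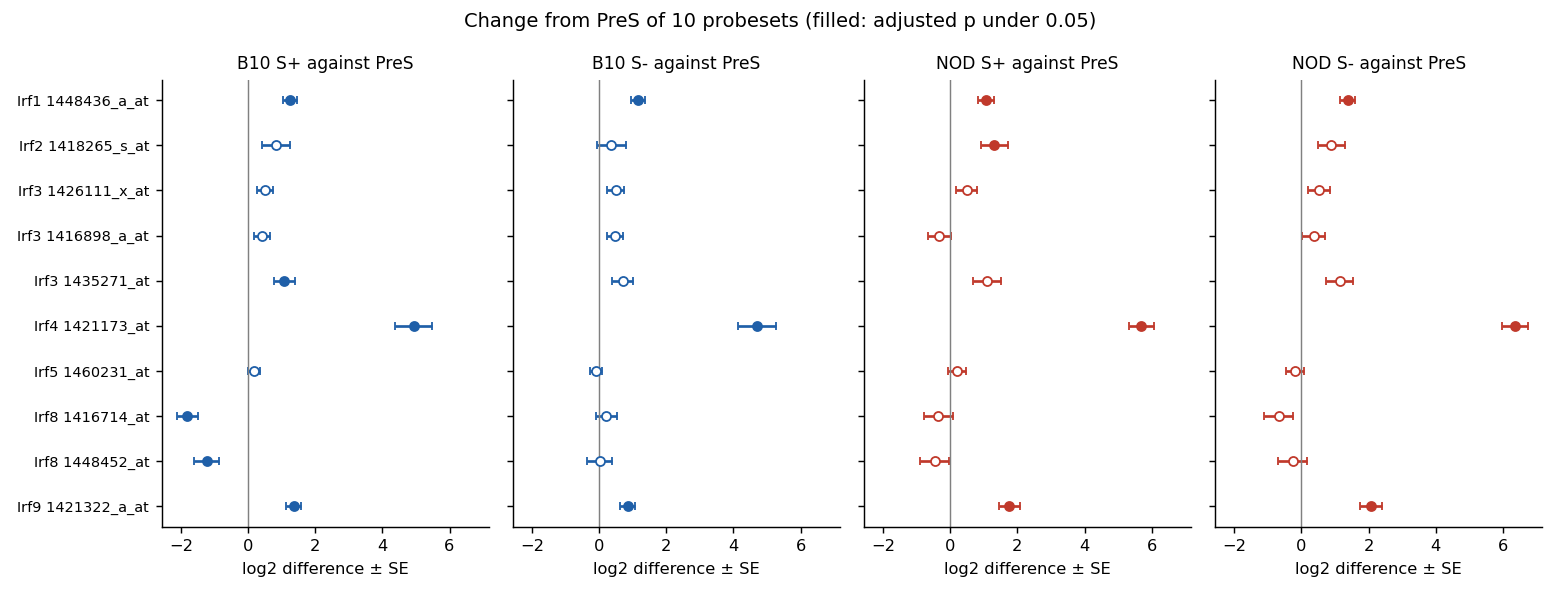
Log2 difference from PreS (x axis) of the 10 tested probesets (y axis, gene and probeset) in B10 S+, B10 S-, NOD S+ and NOD S-. Points are limma estimates with standard error bars over 3 arrays against 6, filled where the adjusted p was under 0.05. Irf4 lies between 4.70 and 6.36 in all 4 panels, and the Irf8 probesets are left of 0 and filled only in B10 S+.

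Irf4, the member induced by T cell receptor signals, showed the largest change of the family. Its PreS signals in B10 ran from 3.2 through a median of 11.4 to 24.9, all under 32, and those of NOD from 2.9 through 3.55 to 11.4. The 3 B10 S+ arrays read 292.3, 316.9 and 334.8, and the 3 B10 S- arrays 252.5, 287.3 and 270.1. In NOD, S+ read 234.9, 178.1 and 352.5 and S- read 402.3, 367.2 and 414.5. Every selecting array lay far above every PreS array of either strain. The log2 difference from PreS was 4.94 ± 0.55 (SE, adjusted p = 3.02e-05) in B10 S+ and 4.70 ± 0.55 (adjusted p = 0.000116) in B10 S-. It was 5.69 ± 0.38 (adjusted p = 1.87e-06) in NOD S+ and 6.36 ± 0.38 (adjusted p = 5.93e-07) in NOD S-. Because PreS signals were near background the sizes are not exact, and with values under 16 raised to 16 the differences were 4.09, 3.87, 3.83 and 4.51 in the same order. All held when any array was left out, but with hybridization day as a fixed block, which left 3 residual degrees of freedom, the NOD S- difference of 6.12 was not called (adjusted p = 0.144). A second Irf4 probeset, from the same reference sequence, read 5.5 to 41.0 over the 24 arrays and failed the filter.

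S+ and S- did not differ in Irf4 beyond the threshold in either strain. The S- arrays of B10 all lay below its S+ arrays, with a log2 difference of -0.24 ± 0.64 (adjusted p = 0.943), and the S- arrays of NOD all lay above its S+ arrays, at 0.67 ± 0.44 (adjusted p = 0.803). The difference of these changes between strains was 0.91 ± 0.82 (adjusted p = 0.803). In order of mean signal the groups ran NOD S-, B10 S+, B10 S-, NOD S+, B10 PreS and NOD PreS, where B10 S- overlapped NOD S+ and the PreS groups overlapped each other. Irf4 in NOD PreS against B10 PreS, all signals under 32, was at -1.13 ± 0.41 (adjusted p = 0.144), and was called with day as a fixed block (-1.67, adjusted p = 0.047) and without B10 PreS TCR replicate 1 (-1.46, adjusted p = 0.0263), while with values under 16 raised to 16 it was at -0.10 (adjusted p = 0.747).

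Irf1, an activator of MHC class I and proteasome genes, rose in each selecting state. In B10 the PreS signals ran from 315.5 through 443.8 to 515.8, S+ read 851.3, 1274.5 and 1001.3, and S- read 1011.0, 1011.2 and 867.9. In NOD the PreS signals ran from 191.9 through 288.0 to 402.2, S+ read 560.8, 578.4 and 703.0, and S- read 837.9, 777.4 and 754.9. No selecting array overlapped the PreS arrays of its strain. The log2 difference from PreS was 1.26 ± 0.20 in B10 S+ (adjusted p = 0.000626), 1.16 ± 0.20 in B10 S- (0.0018), 1.06 ± 0.23 in NOD S+ (0.00923) and 1.37 ± 0.23 in NOD S- (0.0019). All 4 kept the call when any array was left out. With day as a fixed block, B10 S+ was called at 1.44 (adjusted p = 0.0265), and B10 S-, NOD S+ and NOD S- were not, at 1.35, 0.88 and 1.23 (adjusted p = 0.119, 0.824 and 1). NOD S+ was also not called without the 4 arrays of highest Gapdh ratio (1.11, adjusted p = 0.118, with a lone NOD S+ array assumed to vary like the other groups), or against PreS of TCR mice only (0.78, adjusted p = 0.0515).

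NOD cells read lower than B10 cells for Irf1 in each state, without a call. The difference was -0.53 ± 0.17 in PreS (adjusted p = 0.0786, and 0.0458 or 0.0365 without B10 PreS TCR replicate 3 or NOD PreS TCR replicate 3), -0.72 ± 0.24 in S+ (0.0976) and -0.32 ± 0.24 in S- (0.578). The Irf1 signals of the strains did not overlap in S+ or in S-, and did in PreS. In all, 3 of the 10 member probesets did not overlap between strains in S+ and 3 in S-, where 14.6% and 27.7% of all probesets did not.

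Irf9, the DNA-binding subunit of ISGF3, rose in the same 4 comparisons. In B10 its PreS signals ran from 130.2 through 152.7 to 184.3, with 442.0, 295.6 and 517.5 in S+ and 298.9, 218.4 and 362.2 in S-. In NOD they ran from 54.0 through 74.7 to 176.1, with 274.4, 309.3 and 345.2 in S+ and 424.8, 361.5 and 389.6 in S-. Again no selecting array overlapped PreS of its strain. The log2 difference from PreS was 1.37 ± 0.23 in B10 S+ (adjusted p = 0.000773), 0.85 ± 0.23 in B10 S- (0.0268), 1.76 ± 0.32 in NOD S+ (0.00379) and 2.07 ± 0.32 in NOD S- (0.00114). The B10 S- call was lost without B10 PreS TCR insHEL replicate 3, B10 S- replicate 1 or B10 S- replicate 3, with adjusted p up to 0.131, and the others kept it when any array was left out. With day as a fixed block only B10 S+ was called (1.53, adjusted p = 0.0153), while B10 S- was at 1.28 (0.12), NOD S+ at 1.50 (0.591) and NOD S- at 1.85 (0.967). Without the 4 arrays of highest ratio NOD S+ was at 1.90 (adjusted p = 0.101).

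Irf9 was also the member that was called between the strains before selection. NOD PreS was lower than B10 PreS by a log2 difference of -0.80 ± 0.23 (adjusted p = 0.0492), the only call among the 10 member probesets, where 4.13% of all probesets were called and 2.48% were lower. The strains' PreS signals overlapped for all 10 member probesets, and 3.12% of all probesets did not overlap. Of the 6 NOD PreS arrays, 5 lay below every B10 PreS array, and NOD PreS TCR insHEL replicate 3 lay among them. The call was at the threshold: it held in 3 of the 24 fits that left out an array, those without NOD PreS TCR insHEL replicate 3, B10 S+ replicate 2 or NOD S+ replicate 3 (adjusted p over the 24 0.00275 to 0.126, difference -1.0 to -0.66) and in 4 of 11 other settings (adjusted p 0.0325 to 0.492). In S+ the strain difference was -0.40 ± 0.32 (adjusted p = 0.521) and in S- 0.43 ± 0.32 (adjusted p = 0.591), and the change of the rise from PreS to S- between strains, 1.22 ± 0.39, was not called (adjusted p = 0.241). A difference between strains in a probeset's target sequence cannot be told apart from a difference in mRNA.

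**Figure D2:**
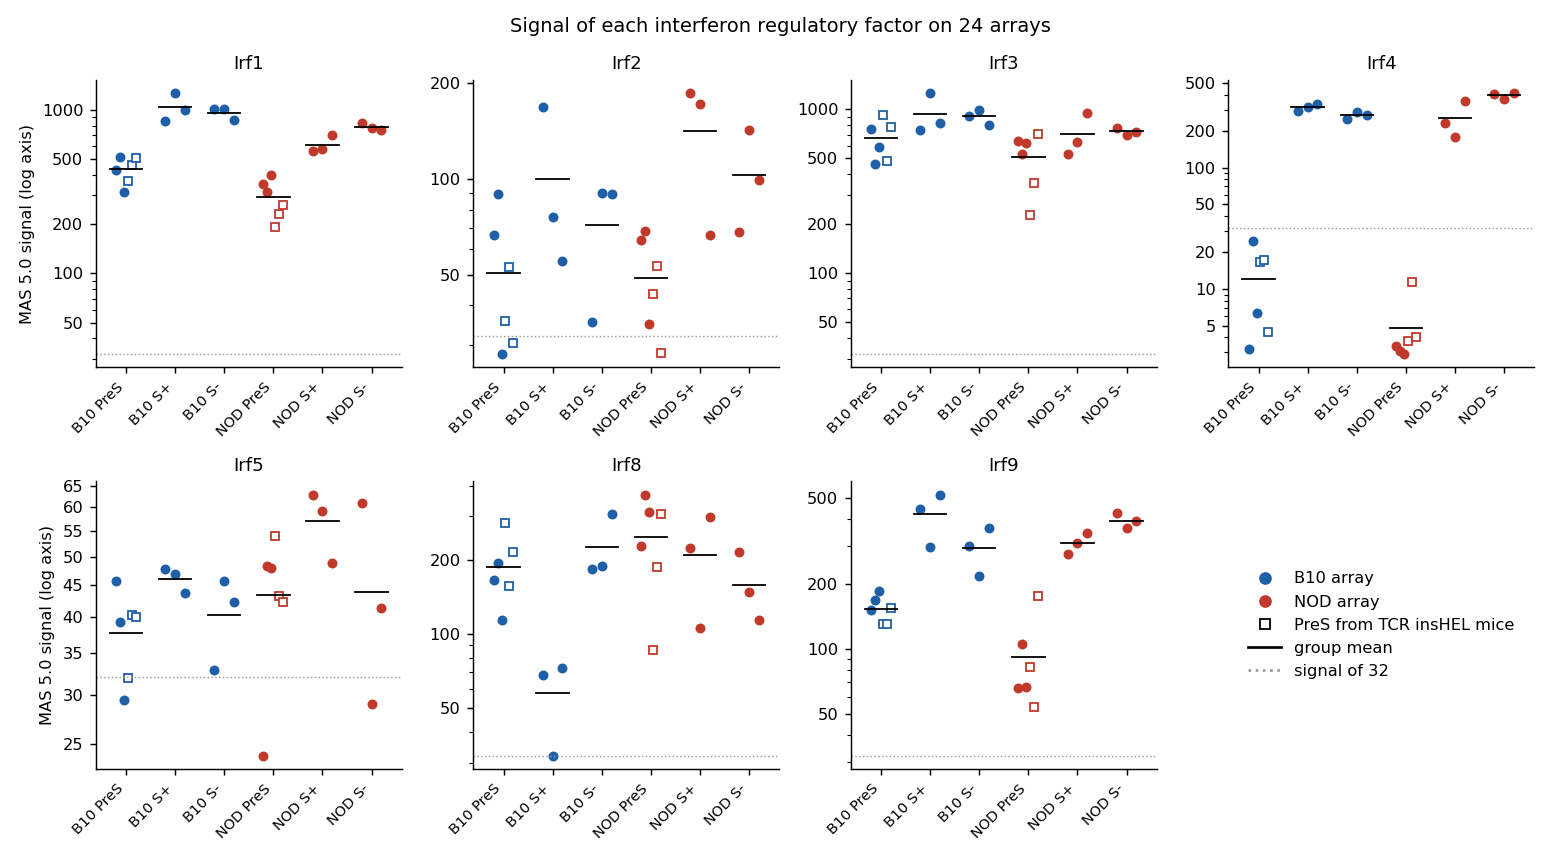
MAS 5.0 signal (y axis, log scale) of the main probeset of each of the 7 genes in 6 groups (x axis); each point is an array, open squares are PreS from TCR insHEL mice, bars are group means and the dotted line is a signal of 32. Irf1, Irf4 and Irf9 are higher in S+ and S- than in PreS of the same strain without overlap, and the 3 B10 S+ arrays hold the lowest Irf8 signals of the 24.

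Irf8, a factor of myeloid and B cell development, went the other way, and in B10 it separated S+ from S-. Its main probeset ran in B10 PreS from 114.2 through 179.3 to 282.2, fell to 67.9, 32 and 72.7 in S+, and read 183.1, 189.3 and 305.9 in S-. In NOD it ran in PreS from 85.8 through 266.5 to 368.2, and read 223.1, 105.6 and 297.4 in S+ and 214.3, 147.5 and 114.4 in S-. The 3 B10 S+ arrays were below all the other 21 arrays, and every other pair of groups next to each other in mean signal overlapped. The fall from PreS to S+ in B10 was -1.81 ± 0.31 (adjusted p = 0.00108), was called with every array left out in turn (adjusted p 0.000947 to 0.00735) and under each of 13 other settings (-2.19 to -1.60, adjusted p 0.000678 to 0.0198). On the 2 days that held both states the difference was -1.14 and -3.20. B10 S- did not differ from PreS beyond the threshold (0.22 ± 0.31, adjusted p = 0.723), but the sign depended on day. On the 1 day that held both states, with an array of each, the difference was -0.64, and -1.14 for the other Irf8 probeset. With day as a fixed block these were -0.09 (adjusted p = 0.967) and -0.66 (adjusted p = 0.633).

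S- was higher than S+ in B10 by 2.02 ± 0.36 (adjusted p = 0.0115), the 1 member probeset called in that comparison, where 1.67% of all probesets were, 1.29% higher. The signals of S+ and S- did not overlap for 3 of the 10 member probesets, both of Irf8 and that of Irf4, where 15.9% of all probesets did not overlap. On the 2 days that held both states the Irf8 difference was 2.15 and 2.57, and with day as a fixed block it was 2.10 (adjusted p = 0.0861). The call was lost without B10 S- replicate 3 (1.80, adjusted p = 0.0534), by the methods' t-test (adjusted p = 0.0506) and with no filter (adjusted p = 0.0501), over a range of 0.0064 to 0.0861 for 12 settings and 0.0104 to 0.0534 for arrays left out. The other Irf8 probeset was lower too. It read 70.3, 23.9 and 50.7 in B10 S+, and ran from 64.4 to 186.8 in B10 PreS and from 85.9 to 158.9 in B10 S-. Its difference from PreS in B10 S+ was -1.23 ± 0.37 (adjusted p = 0.0375, lost without B10 PreS TCR replicate 1 or 3, B10 PreS TCR insHEL replicate 1 or 2, or B10 S+ replicate 2 or 3, with adjusted p up to 0.218, and in 5 of 13 other settings, the methods' t-test, MAS 5.0 scaling only, no filter, all 24 arrays in 1 fit and PreS of the same mice, with adjusted p up to 0.156), and that of S- against S+ was 1.25 ± 0.43 (adjusted p = 0.225).

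In NOD no difference in Irf8 between the states was called. S+ differed from PreS by -0.36 ± 0.43 (adjusted p = 0.608), S- from PreS by -0.68 ± 0.43 (0.332) and S- from S+ by -0.32 ± 0.49 (0.891). These values were not stable. On the 1 day that held both states, with an array of each, NOD S+ was below PreS by a log2 difference of -1.93, and the other probeset by -2.08. With day as a fixed block the main probeset was at -1.93 in S+ (adjusted p = 0.676) and -2.48 in S- (adjusted p = 1). The other was at -2.09 (0.411) and -2.41 (0.717). In B10 S+ the main and other probesets were then at -2.19 and -1.90. The NOD block estimates against PreS rest on that same pair of arrays, so they add nothing to it. For the main probeset the pair was NOD S+ replicate 2, its lowest S+ array at 105.6, and NOD PreS TCR replicate 2, its highest PreS array at 368.2. NOD S- shared no day with NOD PreS. Without the 4 arrays of highest ratio the main probeset was called lower in NOD S- (-0.93, adjusted p = 0.0482) and was at 0.03 in the lone NOD S+ array (adjusted p = 0.98). None of the 10 member probesets was called in NOD S- against S+ by limma, none was at an unadjusted p under 0.05, and none was called by the methods' t-test, where 0 of all probesets were called by limma (565 of 12838 at unadjusted p under 0.05). The signals of NOD S+ and S- did not overlap for 3 of the 10, where 8.06% of all probesets did not. Between strains, NOD S+ was higher than B10 S+ in Irf8 by 1.81 ± 0.45 (adjusted p = 0.0248), the only call of 10 against a background of 3.70% in either direction and 1.84% higher. It was lost without B10 S+ replicate 2 (1.41, adjusted p = 0.183), without NOD S+ replicate 1 (1.68, 0.122), with no filter (1.81, 0.0588) and with day as a fixed block (1.73, 0.402), and its adjusted p was 0.0115 to 0.0454 in the other 9 settings. The change from S+ to S- was lower in NOD than in B10 by 2.35 ± 0.64 on the log2 scale, which was not past the threshold (adjusted p = 0.169), and it was not called when any of the 24 arrays was left out (adjusted p 0.0761 to 0.477) and, of 11 other settings, only without the 4 arrays of highest ratio (-3.14, adjusted p = 0.0391). The strain difference in the change from PreS to S+ was 1.45 ± 0.55 (adjusted p = 0.383).

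Markers of cells that are rich in Irf8 moved with it in part. The 14 named dendritic cell and macrophage markers, of 16 listed, summed to 924.7 to 1872 in B10 PreS, 747.1 to 1071 in B10 S+, 871.0 to 2316 in B10 S-, 975.6 to 2120 in NOD PreS, 2000 to 3198 in NOD S+ and 1148 to 1758 in NOD S-. In B10 S+ against PreS 1 of the 8 that passed the filter was called, Mpeg1, a macrophage perforin-like gene, which was lower by a log2 difference of -1.62 (background 16.8%), and in B10 S- against S+ none was called (median 0.44). In NOD S+ against PreS 3 of 8 were higher (median 0.69, background 14.8%), the complement gene C1qb at 2.77, the growth factor receptor gene Csf1r at 2.37 and Itgax, which encodes CD11c, at 1.07. In S+, NOD against B10, 2 of 8 were higher (background 3.70%), Mpeg1 at 3.02 (adjusted p = 0.00305) and Itgax at 1.43 (adjusted p = 0.0371). Without the 4 arrays of highest ratio none of the 8 was called in B10 S+ against PreS or in B10 S- against S+. With 1 NOD S+ array left, the median was then 0.50 in NOD S+ against PreS and 1.08 in S+, NOD against B10. These medians do not show whether the calls in NOD S+ hold. In B10 PreS, S+ and S- the 9 named B cell markers, of 10 listed, summed to 286.4 to 639.0, 191.1 to 271.5 and 285.0 to 401.0. In NOD they summed to 217.8 to 329.2 in PreS, 299.6 to 465.5 in S+ and 239.7 to 421.9 in S-. The NOD PreS and NOD S- sums overlapped those of B10 S+. Pax5 and Ebf1, which define B cells, had mean signals under 32 in all 6 groups. Cd79b was lower than in PreS in all 4 comparisons, by a log2 difference of -1.69 in B10 S+, -0.76 in B10 S-, -0.96 in NOD S+ and -0.83 in NOD S-, and was the 1 B cell marker of 5 called in each, in B10 alone once the 4 arrays were left out. Of the MHC class II genes, 6 of 7 were named and summed to 800.8 to 1588 in B10 S+, 821.7 to 1722 in B10 S- and 2669 to 3863 in NOD S+. The sums were 1104 to 3598 in B10 PreS, 1128 to 3231 in NOD PreS and 1422 to 2820 in NOD S-, which all overlapped NOD S+. In S+, NOD against B10, 2 of 5 were higher (median 1.34, background 1.84% higher). Without the 4 arrays, with 1 NOD S+ array left, the median of the class II genes was 1.79, which does not show whether the 2 calls hold. Genes of double positive cells also differed: they summed to 1374 to 2208 in B10 S+, 1308 to 1661 in B10 S- and 4490 to 5603 in NOD S+. Most of the gap in summed signal was Dntt, which was higher in NOD in each state, and without it the sums were 1270 to 1937, 1149 to 1431 and 1686 to 3091. The difference was not confined to Dntt, since 4 of 8 tested double positive genes were higher in S+, NOD against B10 (median 1.29, background 1.84% higher). Without the 4 arrays, with 1 NOD S+ array left, their median was 1.93. The part of these other cells in the Irf8 results was not tested.

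**Figure D3:**
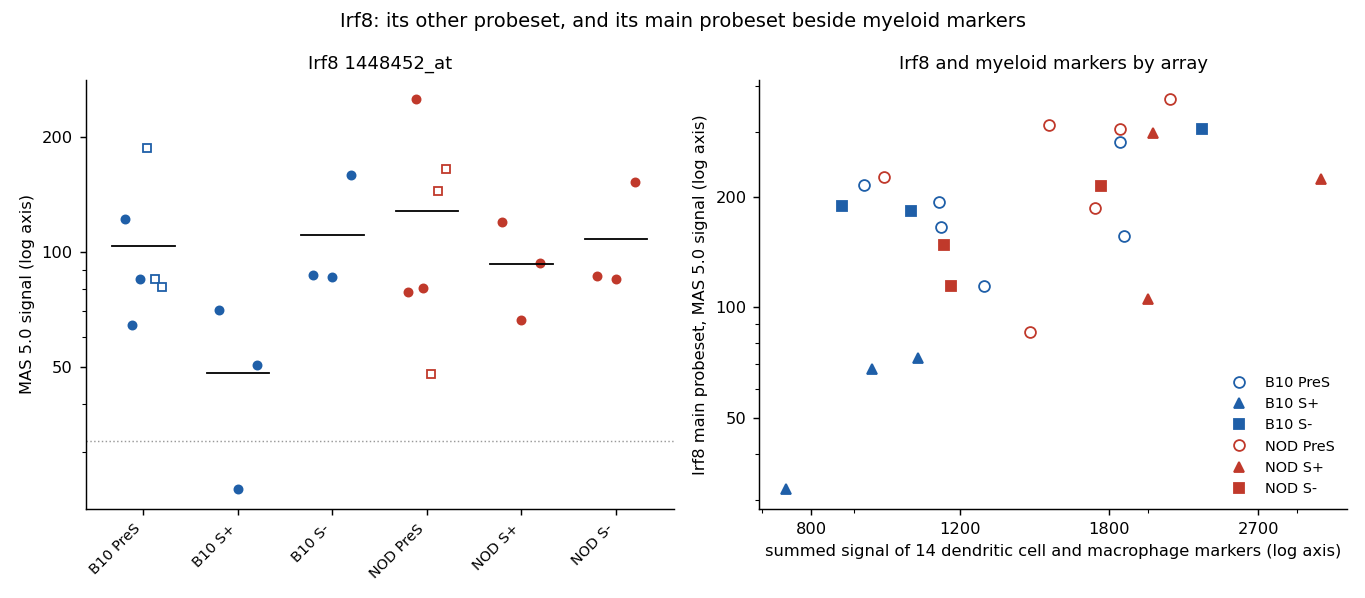
Left: signal (y axis, log scale) of the other Irf8 probeset in 6 groups, with symbols, bars and dotted line as in the plot of all members by group. Right: signal of the main Irf8 probeset (y axis, log scale) against the summed signal of 14 dendritic cell and macrophage markers (x axis, log scale), each point an array. The 3 B10 S+ arrays, with sums of 747.1 to 1071, have the lowest Irf8 signals. Sums in that range were also those of B10 PreS TCR insHEL replicate 3 (924.7), NOD PreS TCR replicate 1 (975.6) and B10 S- replicates 1 (1049) and 2 (871). All remaining arrays, most of B10 PreS among them, had higher sums.

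Irf2, Irf3 and Irf5 changed little or only in single comparisons. For Irf2, a repressor of interferon responses, the NOD S+ arrays read 186.4, 171.3 and 66.7 against 28.4 to 68.7 in NOD PreS, a log2 difference of 1.31 ± 0.40 (adjusted p = 0.0454). The high signals were those of NOD S+ replicates 1 and 2, which overlapped no PreS array, while replicate 3 lay within PreS. Both are arrays of high Gapdh ratio, as is B10 S+ replicate 1, which at 168.5 was the highest B10 array, and over the 24 arrays the log2 Irf2 signal had r = 0.75 with the log2 ratio. Without the 4 arrays of highest ratio the difference was 0.34 (adjusted p = 0.792), with the ratio as a covariate it was 0.86 (adjusted p = 0.0525), and it was lost without NOD PreS TCR replicate 3, any NOD PreS TCR insHEL array, NOD S+ replicate 1 or 2, or NOD S- replicate 3 (adjusted p up to 0.207). In the other 3 comparisons with PreS Irf2 was at 0.84, 0.36 and 0.89 without a call.

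For Irf3, which turns on type I interferon genes once phosphorylated, 3 of 4 probesets were tested. The brightest read 227.5 to 1258 over all arrays and differed from PreS by 0.49 to 0.52 in all 4 comparisons with no call (adjusted p 0.187 to 0.319). Its probes are marked as ones that can bind other transcripts, so its level is uncertain. The dimmest tested probeset read 91.0, 157.2 and 78.5 in B10 S+ against 22.4 to 74.2 in B10 PreS, a difference of 1.08 ± 0.31 (adjusted p = 0.0291) that was lost without B10 PreS TCR insHEL replicate 2 or 3 or B10 S+ replicate 2 (adjusted p up to 0.168). It was also lost in 6 of 13 other settings, the methods' t-test, no filter, day as a fixed block, the ratio as a covariate, all 24 arrays in 1 fit and PreS of the same mice (adjusted p up to 0.164). It was at 0.70 in B10 S-, 1.10 in NOD S+ and 1.14 in NOD S- without a call. The third was at 0.42, 0.48, -0.33 and 0.37, and its signal had r = -0.72 with the Gapdh ratio over the 24 arrays, so the 3 probesets of Irf3 did not give the same size of change. Irf5, a factor of macrophages and B cells, was dim, at 23.9 to 62.9 for its tested probeset, which reached 32 on 20 of the 24 arrays, and 9.8 to 75.4 for the other, and was called in no comparison.

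PreS cells of TCR insHEL and TCR mice were compared over both strains together, 6 arrays against 6, to see whether the transgene alone went with a change. Of the 10 member probesets none was called in TCR insHEL against TCR by limma or by the methods' t-test, both with adjusted p. None was at an unadjusted limma p under 0.05, and 0 of all probesets were called. Over both strains the signals overlapped for all 10, and 0.0779% of all probesets did not overlap. Within NOD they did not overlap for 2 of 10 (14.5% of all probesets), and within B10 for none (6.29%). Irf1 in NOD read 314.9 to 402.2 in TCR and 191.9 to 261.2 in TCR insHEL, means of 357.3 and 228.3, and in B10 the means were 420.3 and 445.2. The other was Irf4, at 2.9 to 3.4 and 3.7 to 11.4. These differences within a strain were not tested. The differences lay between -0.42 ± 0.36 for Irf2 and 0.67 ± 0.40 for Irf4. In S-, NOD against B10, none of 10 was called by limma or the methods' t-test or was at an unadjusted p under 0.05 (background 2.32%). In the strain differences of S+ against PreS, S- against PreS and S- against S+ none was called by limma or the methods' t-test, with 1, 2 and 1 at an unadjusted p under 0.05, where 0.358%, 0.101% and 0.148% of all probesets were called.

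The genes with the most similar pattern to each member were taken by the correlation of log2 values over the 24 arrays among 5833 genes. Arrays of the same group and day enter together, so these values are a description. Irf9 was most like the interferon-stimulated genes Oasl2 (r = 0.92) and Oas2 (0.91) and the glycosyltransferase gene Lfng (0.90). Irf1 was most like Parp14 (0.98), itself interferon-stimulated, Rasa3 (0.94) and the cyclin gene Ccnd2 (0.93). Irf4 was most like Gpr83 (0.97), the chemokine receptor gene Ccr7 (0.96) and Samhd1 (0.96). Irf8 had no near neighbour of that kind, and its closest were Sgo1 (0.73) and Dtl (0.72), which act in mitosis and DNA replication, and the death gene Bid (0.72). Irf3 was nearest to Traf1 (0.89), Irf2 to Ubp1 (0.92) and Irf5 to Cndp2 (0.70).

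Some of the genes that lie upstream of the factors were called. Of 11 tested interferon receptor and JAK-STAT genes 4 were higher and 1 lower in B10 S+ against PreS, 2 and 1 in B10 S-, 3 and 1 in NOD S+, and 3 and 1 in NOD S-, with medians of 0.79, 0.67, 0.71 and 0.99. The others did not pass the test, and the shares of all probesets called in either direction were 16.8%, 11.2%, 14.8% and 11.2%. Jak2, a kinase of cytokine receptors, was higher by 1.21, 1.89, 1.31 and 1.30 in these comparisons, and Tyk2, a kinase of the type I interferon receptor, by 0.94, 1.04, 0.86 and 0.99. Ifngr1, the ligand-binding chain of the interferon gamma receptor, was lower by a log2 difference of -1.24, -1.45, -1.26 and -1.38, with mean signals of 927.8 in B10 PreS and 386.5 in B10 S+. Ifnar1, a chain of the type I interferon receptor, was also higher in B10 S+ (0.92), Ifngr2, the signalling chain of the interferon gamma receptor, in B10 S+ (1.26) and NOD S+ (0.98), and Usp18 in NOD S- (1.77). Of 11 tested activators of Irf3, Irf5 and Irf7, 5, 6, 4 and 4 were higher and none lower, with medians of 0.73, 0.77, 0.84 and 0.88, beside 7.37%, 4.42%, 6.13% and 5.51% of all probesets higher. With the 4 arrays of highest ratio left out, 0 of the receptor and JAK-STAT genes and 2 of the activators were called in NOD S+ (2.63% of all probesets), with Jak2 at 0.47 (adjusted p = 0.581) and Ikbke at 2.66 (adjusted p = 0.01). In NOD S- against PreS, where all S- arrays stayed, more of the receptor and JAK-STAT genes were then higher than with all arrays (median 0.89). With all arrays, Ikbke, a kinase of Irf3 and Irf7, was higher by 2.02, 1.46, 1.95 and 2.35, and the RNA sensor gene Ifih1 by 1.82, 1.50, 2.45 and 2.81.

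Among partners of the factors, of 10 tested genes 1 was higher and 1 lower in B10 S+ against PreS, 2 were higher in B10 S-, none in NOD S+ and 2 in NOD S-, with medians of 0.15, 0.27, 0.12 and 0.29. With so few genes, the shares in B10 S+ were about those of all probesets, 7.37% higher and 9.44% lower. The lower one in B10 S+ was Spib, an Ets factor of B cells and plasmacytoid dendritic cells, at -1.15. Junb, a subunit of AP-1, was higher by 1.25 in B10 S+, 1.11 in B10 S- and 1.47 in NOD S-. Batf, which binds DNA beside Irf4, was higher by 1.58 ± 0.26 in B10 S- (adjusted p = 0.00114), and Nfatc1, a factor of the calcium response, by 0.79 in NOD S-. Irf7, the family gene outside the 7, was higher by 1.84 ± 0.23 in B10 S+ (adjusted p = 8.65e-05), 1.87 in B10 S- and 1.68 in NOD S-, and was at 0.89 in NOD S+ without a call.

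Of 28 tested targets of ISGF3, the complex that holds Irf9, 20 were higher in B10 S+ against PreS, 14 in B10 S-, 7 in NOD S+ and 14 in NOD S-, and none was lower in any of them. Their median log2 difference was 1.28, 1.12, 0.98 and 1.83, beside 0.04, 0.01, 0.02 and 0.02 over all probesets. Of all probesets 7.37%, 4.42%, 6.13% and 5.51% were higher. Samhd1, which degrades nucleotides in virus-infected cells, was higher by 3.19 ± 0.22 in B10 S+, 3.07 in B10 S-, 2.96 in NOD S+ and 3.44 in NOD S-, and Ifit1, an RNA-binding antiviral gene, by 2.74 in B10 S+, 2.66 in NOD S+ and 2.97 in NOD S-. Oas2, a sensor of double-stranded RNA, was lower in S- than in S+ of B10 by a log2 difference of -1.29 (adjusted p = 0.042). It was the only ISGF3 target called there, where 1.67% of all probesets were. The list was chosen with Irf9 in view, and Irf7, Ifih1 and other genes are in more than 1 list. In NOD S+ 2 were called without the 4 arrays of highest ratio, Parp14 and Samhd1, the latter at 2.85 (adjusted p = 0.0184), and Ifit1 was at 1.87 (adjusted p = 0.127). Oas2 in B10 S- against S+ was then at -1.15 (adjusted p = 0.134).

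Some of these targets were lower in NOD. In PreS, NOD against B10, 5 of 28 ISGF3 targets were lower and none higher, which were Usp18, which damps the interferon receptor, at -1.51 ± 0.35 (adjusted p = 0.0118), Oas2 at -1.50 (0.00529), Oas1a at -1.24 (0.0114), Ifih1 at -1.11 (0.0188) and Parp14 at -0.72 (0.0375). The median of the 28 was -0.63, where that of all probesets was -0.01 and 2.48% of all probesets were lower. In S+ 3 were lower and none higher (median -0.98, background 3.70% in either direction), Oas1a at -1.74, the tetherin gene Bst2 at -2.13 and Trim30a. In S- 1 was lower (median -0.08, background 2.32% in either direction). For Trim30a, an inhibitor of innate signalling, only the main probeset is given here. The study, which names it Trim30, also describes a probeset of it with little difference between strains. By its own rule the study lists another as lower in NOD in every condition, PreS included. Here Trim30a was lower in NOD S+ at -2.19 (adjusted p = 0.00493) and in NOD S- at -1.99 (adjusted p = 0.0136). Its mean signals were 267.2 in NOD S+ and 1232 in B10 S+. It was the 1 target still called in S+ between strains without the 4 arrays (-2.85, adjusted p = 0.0348).

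Of 18 tested targets of Irf1, 12 were higher in B10 S+ against PreS, 12 in B10 S-, 6 in NOD S+ and 8 in NOD S-, with none lower except Psmb8 in NOD S+ (-1.09). The medians were 1.14, 0.97, 0.71 and 0.99, and 7.37%, 4.42%, 6.13% and 5.51% of all probesets were higher. Tapbp, the tapasin gene of peptide loading, was higher by 2.25, 2.00, 2.33 and 2.69, and Il7r, the interleukin 7 receptor of maturing thymocytes, by 2.30, 1.88, 3.79 and 3.11. In S+, NOD against B10, 4 of 18 were lower and none higher (background 3.70% in either direction). They were the immunoproteasome genes Psmb9 (-1.40), Psmb8 (-1.32) and Psmb10 (-1.30) and the GTPase gene Igtp (-1.25), with adjusted p of 0.037 to 0.0449. Without the 4 arrays of highest ratio none of the 18 was called there, and these 4 were at -0.81, -0.88, -0.82 and -0.95 (adjusted p 0.44 to 0.782). In NOD S+ against PreS 3 were then higher, H2-D1, Tapbp (1.99, adjusted p = 0.012) and Il7r (3.25, adjusted p = 0.01), and Psmb8 was at -0.17. In PreS 1 was called (background 4.13% in either direction), Ifi47, which was higher in NOD at 1.15.

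Of 13 tested genes linked to Irf4 in activated T cells, 5 were higher and 2 lower in B10 S+ against PreS, 9 and none in B10 S-, 5 and none in NOD S+, and 6 and none in NOD S-, with medians of 0.60, 1.45, 0.60 and 1.54. Of all probesets 7.37%, 4.42%, 6.13% and 5.51% were higher in these comparisons, and 9.44% were lower in B10 S+. The lower genes in B10 S+ were Il2ra (-2.29) and Bcl6 (-1.09). Bcl3, a nuclear NF-kB cofactor, was higher by 5.18 ± 0.70 in B10 S+ and 6.04 ± 0.29 in NOD S+, sizes that are not exact because its PreS signals were near background. In S- against S+ of B10, 4 of the list were higher and none lower (median 0.69, beside -0.01 over all probesets, of which 1.29% were higher). These were Il2ra, the interleukin 2 receptor alpha chain, at 2.18 ± 0.23 (adjusted p = 0.000303), Tnfrsf9 at 1.92, Tnfrsf4 at 1.33 and Tnfrsf18 at 1.06, costimulatory receptors of activated T cells. Of these, Il2ra and Tnfrsf4 were called without the 4 arrays of highest ratio, and Tnfrsf9 and Tnfrsf18 were not (adjusted p = 0.11 and 0.0837). In NOD S- against S+ none of the 13 was called (median 0.81), where 0 of all probesets were. Il2ra was lower in NOD PreS than in B10 PreS at -1.70 ± 0.20 (adjusted p = 4.59e-06), as was Myc at -1.01, where 2.48% of all probesets were lower. Of 8 tested readouts of T cell receptor signals, 4, 5, 4 and 4 were higher than PreS and none lower, with medians of 0.74, 0.92, 0.86 and 0.81. The shares of all probesets higher are those given above for the same comparisons. Nr4a1, an immediate early gene, was higher by 2.30 in B10 S+, 3.44 in B10 S-, 2.86 in NOD S+ and 3.72 in NOD S-, and none of the 8 was called between S- and S+ in either strain. Nr4a1 and Egr2 were called in B10 S+ without the 4 arrays, and only Nr4a1 in NOD S+ (2.64, adjusted p = 0.0062).

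**Figure D4:**
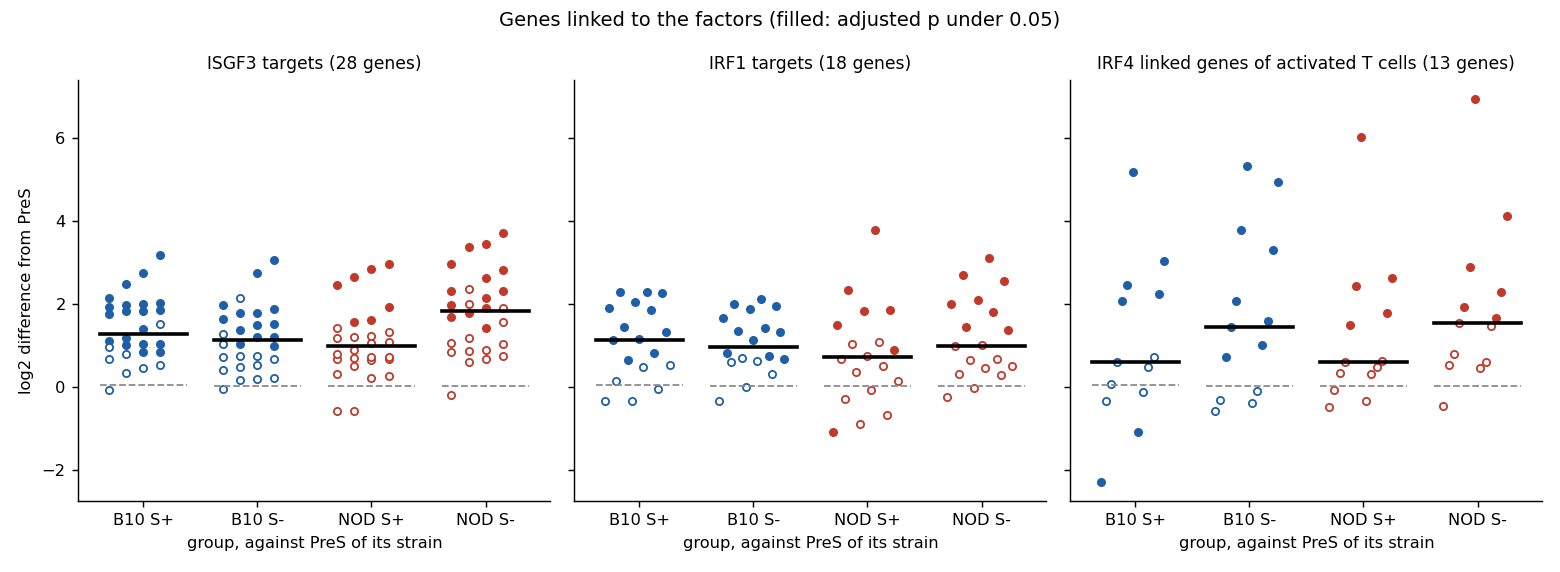
Log2 difference from PreS (y axis) of tested ISGF3 targets (28), Irf1 targets (18) and genes linked to Irf4 (13) in B10 S+, B10 S-, NOD S+ and NOD S- (x axis). Each point is a gene, filled where the limma adjusted p was under 0.05; black bars are list medians and grey dashed bars the median of all probesets. Of the 28 ISGF3 targets 20 are filled in B10 S+ and 7 in NOD S+, all above 0.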

How the data were processed

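Signals of 22690 probesets were deposited for 24 arrays by the authors, who computed linear intensities with MAS 5.0 and scaled every array so that its trimmed mean was 150. Here 64 control probesets were removed, 33 zeros became 0.1, and each array's log2 values were brought to a common mean and variance, as in the study's methods. Probesets with a signal of at least 32 on all 3 arrays of at least 1 of 8 conditions were kept, in place of present calls, which were not used here. Symbols came from the platform's annotation, updated through the gene identifier. The main probeset of a gene was that of highest mean signal. Comparisons within a strain used a limma (3.58.1, R 4.3.3) fit of its 12 arrays, in which the PreS arrays of both genotypes formed 1 group of 6, and comparisons of strains used 1 fit of 24, where the study used ordinary tests, and the fits were tested on simulated data. P values were adjusted by Benjamini and Hochberg over 12838 probesets, with a threshold of 0.05. Those of the ordinary tests run for comparison, called the methods' t-test, were adjusted too, a step the study's methods do not name. With 3 or 6 arrays a group, their number limits the precision, and correlation between replicates was 0.843 to 0.967.

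All 7 members were named, with up to 4 genes of each list per comparison, those of largest change past the threshold among genes whose mean reached 100 in some group, and the 3 genes most like each member. The members and lists were chosen with earlier results of these data known. List genes that the annotation did not name were left out. Arrays sharing a replicate number were not treated as paired: their deviations from group means had a mean correlation of 0.051. Alternatives were quantile normalization or the MAS 5.0 scaling alone, the methods' t-test, a filter at 64 or none, values floored at 16, the replicate block, hybridization day as a fixed or random block, the Gapdh 3' to 5' ratio as a covariate, all arrays in 1 fit, PreS of the same mice and each array left out. Leaving out the 4 arrays of highest ratio was added after seeing the data.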

Additional observations from a re-analysis of the deposited data

Results flagged for a closer look

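In NOD PreS the Irf4 signal of TCR insHEL replicate 2 was 11.4, while the other 5 arrays read 2.9 to 4.0, and its gap to the nearest array took 0.871 of the range. It was the only such array among 20 sets of 6 PreS arrays tested, where chance gives about 1 in 20. All 6 signals were under 32, near background.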

How the results depend on the processing

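No member changed direction where it was called. The number of member probesets called stayed within 1.5 times of the reported count except as follows. In B10 S- against S+ (1 called) it was 0 by the methods' t-test, with no filter and with day as a fixed block, and 0 to 1 with arrays left out. With day as a fixed block it was also 1 in B10 S- against PreS (3), 1 in NOD S+ against PreS (4), 0 in NOD S- against PreS (3) and 0 in S+ between strains (1), which was 0 with no filter too. In NOD S+ against PreS it was 2 with PreS of the same mice and 1 without the 4 arrays of highest ratio, and in NOD S- against PreS 5 with the ratio as a covariate. In PreS between strains (1) it was 0 by the methods' t-test, by quantile normalization, with no filter, with day as a random block, with the ratio as a covariate and without the 4 arrays, and with day as a fixed block it was 1, Irf4 in place of Irf9. The strain difference in S- against S+ (0) was 1 without the 4 arrays. With arrays left out the counts were 4 to 6 and 2 to 3 in S+ and S- of B10 against PreS, 3 to 5 and 3 to 4 in NOD, 0 to 1 in PreS and 0 to 2 in S+ between strains, and 0 in the other comparisons. The replicate block left 6, 3, 1, 4, 3, 0, 1 and 1 called in the first 8 comparisons and none in the others, and changed no call of a member. The methods' t-test was counted after the same adjustment over all probesets. The study's own rule used unadjusted thresholds, on an overall F-test and then on the contrast. By that rule 4, 3, 1, 3, 3, 0, 3 and 2 of the 10 passed in the first 8 comparisons. None passed in S- between strains, 1, 2 and 1 in the 3 strain differences, and 1 in TCR insHEL against TCR. The share of all probesets passing that rule is not given here. With 3 arrays a group, signals under 32 are near background and their fold changes are not exact.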
